A study of Mus musculus with 52 samples.

Results

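Npas4 null mice and their wild-type littermates were compared after 1 h of light for gene expression in the suprachiasmatic nucleus (SCN), the paired hypothalamic nucleus that holds the circadian pacemaker. The comparison took 6 of the 52 samples of the series, 3 bulk RNA-seq libraries of null mice and 3 of wild-type mice, chosen by the genotype and light condition of their labels. All were from male Mus musculus of 11 to 12 weeks that received light for 1 h from circadian time 17 (CT17, in hours of the animal's own cycle), and each library pooled 6 pairs of SCN. The other 6 libraries of the same experiment, 3 null and 3 wild type kept in the dark, served to show the genotype difference without light. The sources used here give neither the strain nor the deleted part of the Npas4-/- allele, and the labels list the batch of these libraries as not applicable. Whether the pools of a group were collected on different days is not stated, so the p-values speak of the spread among these pools, which may be partly technical.

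NPAS4 is a transcription factor of the bHLH-PAS class. Its gene is switched on in neurons by calcium entry, and the protein pairs with ARNT or ARNT2 to bind DNA. In forebrain neurons it is known for genes that adjust inhibitory synapses, Bdnf among them. In the SCN, light reaches the neurons through retinal glutamate and PACAP, induces immediate-early genes and Period genes, and during the night shifts the clock. The SCN signals through peptides, with VIP and GRP made in its light-receiving core and vasopressin in its shell.

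The 12 libraries held 26638939 to 32097975 counted reads, and the 6 light libraries 27745902 to 32097975. Libraries of a group differed by 5.85 to 29.9 times the counting noise (chi-square per degree of freedom), so none was a copy of another. The libraries held the SCN's defining transcripts, with summed levels of 12 SCN neuron markers from 1638 to 2213 CPM (counts per 1000000 of the library total after TMM scaling, the trimmed-mean scaling of edgeR) in wild type and from 2402 to 2782 CPM in null after light. These sums did not overlap between the genotypes. Of the 12 markers, 3 were called higher in null and 1 lower, where 0.273% and 0.193% of all genes tested were. The part of this difference in the results was not tested. In bulk tissue, fewer cells of a type and less RNA per cell cannot be told apart. Markers of neighbouring hypothalamic neurons, summed over 19 genes, were at 501 to 699 CPM in wild type and 455 to 650 CPM in null after light. Of these genes Kiss1 had no read in any null library, in light or in the dark. The log2 fold change after light, null over wild type, was below 0 for 16 of the 18 tested, against 7489 of all 15001 genes tested. Their median was -0.15 after light and 0.03 in the dark, and whether the dissection differed was not tested. Summed levels of astrocyte, oligodendrocyte, microglia, endothelial, mural and ependymal markers and of general neuronal markers overlapped between the genotypes. Those of 6 red blood cell markers did not, at 257 to 353 CPM in wild type and 137 to 207 CPM in null. Those of 8 meningeal fibroblast markers, at 132 to 136 CPM and 114 to 122 CPM, and of 6 oligodendrocyte precursor markers, at 328.9 to 364 CPM and 325 to 328.5 CPM, did not overlap either. No member of the blood, fibroblast and oligodendrocyte precursor lists passed the test of single genes, and the part of these differences in the results was not tested.

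Npas4 itself (chr19:4984353-5003439, GRCm38) gave 13.7, 10.7 and 14 CPM in the wild-type light libraries and 4.55, 7.63 and 5.19 CPM in the null light libraries. The groups did not overlap, and the log2 fold change, null over wild type, was -1.14 ± 0.24 (estimate ± SE, n = 3 libraries a group). With an edgeR adjusted p of 0.0663 the difference did not pass the threshold of 0.05. By DESeq2 the adjusted p was 0.000600 for the same size of difference. In the dark the null libraries held 5.27, 10.1 and 10.4 CPM and the wild-type libraries 8.64, 8.20 and 8.34 CPM, a log2 difference of 0.04 ± 0.23 with overlapping groups. The count runs over the whole gene, so reads in the null libraries do not show which part of the transcript remains, and it is an incomplete check of the genotype labels. Among the bHLH-PAS genes, 0 of 19 passed the test in either direction, where 0.467% of all genes tested passed. ARNT, ARNT2, BMAL1 (Arntl) and CLOCK are members of this family, and Arnt, Arnt2, Arntl and Clock differed between the genotypes by -0.00 to 0.07.

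Of 21999 genes in the count table, 15001 had enough reads to be tested. After light 70 genes passed at an adjusted p of 0.05, which is 0.467% of those tested. Of these, 41 were higher in null (0.273%) and 29 lower (0.193%). The 3 null and 3 wild-type values did not overlap for any of the 70, which is no separate support, since the 70 were picked from these same values. Groups did not overlap for 13.3% of all genes tested. Differences of at least 2-fold were found for 26 of the 70, 18 higher and 8 lower. With any 1 of the 6 light libraries left out, each in turn, 32 to 42 genes were called, and 27 of the 70 were called in every one of these 6 fits. Among genes named below, Sod3, Slc6a3, Wnt3, Tmcc3, Bhlhe41, Svil, Nov and Chrna3 were called in none of these fits. Nipal1, Klf10, Stac, Adam11, Fndc1, Ankrd6, Rab36, Spcs3, Fndc9, Ntsr1, C1ql3, Npr1, Fst and Fgf5 were called in 1. DESeq2 called 163 genes, all 70 among them. With the replicate number as a block, 124 higher and 103 lower genes were called, again with all 70 among them.

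**Figure D1:**
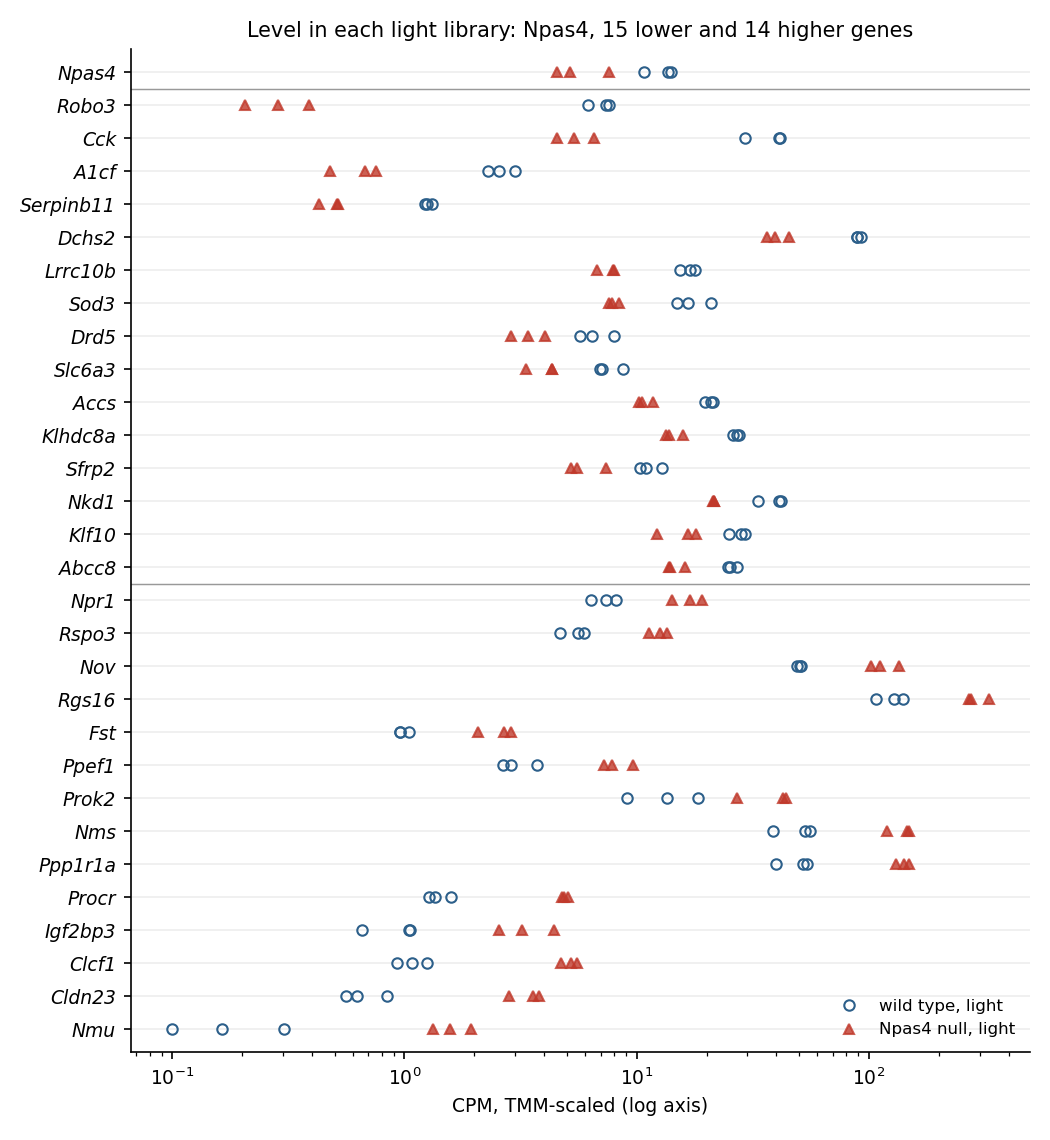
Level of Npas4 (top), of the 15 genes with the most negative log2 fold change and of 14 of the 15 with the most positive among genes called at 1 CPM or more, in each of the 3 wild-type light libraries (open circles) and the 3 null light libraries (triangles), as TMM-scaled CPM on a log axis. The symbols of the 2 genotypes do not overlap in any row, and Robo3 at the upper end and Nmu at the lower end show the widest gaps.

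Robo3 and Cck had the largest losses in null SCN among genes at 1 CPM or more. Robo3 (chr9:37416045-37433436) encodes an axon guidance receptor of the Roundabout family. It was at 6.17, 7.63 and 7.41 CPM in wild type and at 0.287, 0.388 and 0.205 CPM in null after light. Every null library lay far below every wild-type library, and the null mean was 4.15% of wild type, a log2 fold change of -4.56 ± 0.27 (adjusted p = 8.97e-06). Its relatives Robo1 and Robo2 were at 28.2 and 24.7 CPM in null and 28.5 and 25.3 CPM in wild type, with log2 fold changes of -0.02 and -0.03. Cck (chr9:121489824-121495694) encodes cholecystokinin, a peptide of a subset of SCN neurons. It was at 40.9, 29.3 and 41.4 CPM in wild type and at 4.55, 6.53 and 5.39 CPM in null, so that null SCN held 14.8% of the wild-type level (log2 fold change -2.75 ± 0.17, adjusted p = 1.01e-05). The transcripts of its receptors did not pass the test, with Cckar at 0.05 and Cckbr at 0.05 on the log2 scale.

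The next largest losses were of genes at low levels. A1cf, an RNA-binding cofactor of APOBEC1, was at 2.28 to 3.00 CPM in wild type and 0.478 to 0.752 CPM in null (log2 fold change -2.03 ± 0.27). Serpinb11, a serine protease inhibitor gene, was at 1.22 to 1.31 CPM and 0.430 to 0.517 CPM (-1.36 ± 0.20). Nipal1, which codes for a magnesium transporter of the NIPA family, was at 0.893 to 0.977 CPM and 0.0716 to 0.323 CPM, under 1 CPM in both groups (-2.43 ± 0.42). Dchs2 encodes a large protocadherin. Its wild-type libraries held 88.9, 89.1 and 92.8 CPM and its null libraries 36.3, 45.3 and 39.3 CPM, with no overlap (-1.16 ± 0.17, adjusted p = 0.00760). Lrrc10b fell by 1.14 ± 0.12 and Sod3, extracellular superoxide dismutase, by 1.14 ± 0.21. Sod3 was not called in any of the 6 fits with 1 light library left out.

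Other genes that fell code for receptors, transporters and secreted signals. Drd5, a dopamine receptor that raises cyclic AMP, was at 8.02, 5.72 and 6.42 CPM in wild type and 4.05, 3.40 and 2.87 CPM in null, 51.2% of wild type. Slc6a3, the dopamine transporter, was at 7.11, 8.78 and 6.95 CPM against 4.30, 4.33 and 3.34 CPM, 52.5% of wild type. Both genes were higher in each wild-type library than in any null library, and Slc6a3 counted among the markers of neighbouring hypothalamic neurons, of which it was the sole member called of 18 tested. Abcc8, the sulfonylurea receptor subunit of ATP-sensitive potassium channels, was at 24.7 to 27.2 CPM in wild type and 13.8 to 16.1 CPM in null (log2 fold change -0.81 ± 0.09, adjusted p = 0.000991). Sfrp2 and Nkd1, both antagonists of Wnt signals, fell by 0.91 ± 0.15 and 0.85 ± 0.11. The ligand gene Wnt3 fell by 0.57 ± 0.09, from 8.15 to 8.48 CPM in wild type to 5.52 to 5.70 CPM in null. Rspo3, which codes for an R-spondin that strengthens Wnt signals, rose by 1.21 ± 0.15. Accs and Klhdc8a were at 52.7% and 53.2% of wild type.

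Smaller losses with little spread were found in genes with many reads. Prkag2, a regulatory subunit of AMP-activated protein kinase, was at 148 to 162 CPM in wild type and 104 to 118 CPM in null, 71.2% of wild type (-0.49 ± 0.07, adjusted p = 0.00572). Adam11, a non-catalytic neuronal ADAM protein, was at 67.6% of wild type, Tpm1, a tropomyosin, at 77.9%, and Ankrd6, a Dishevelled-binding protein, at 78.7%. Rab36, a Rab GTPase, and Tmcc3 had the smallest called losses, at 81.4% and 82.9% of wild type. Tmcc3 was at 117 CPM in each null library and at 137 to 146 CPM in wild type.

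Peptide genes of the SCN moved in both directions. Of 33 tested genes in a list of SCN neuropeptides, their receptors and regulators, 5 rose (Prok2, Nms, Nmu, Rgs16 and C1ql3) and 1 fell (Cck). Over all genes tested 0.273% rose and 0.193% fell. The list's median log2 fold change was 0.03, against 0.00 over all genes tested. Prok2 (chr6:99711299-99726392), which encodes prokineticin 2, an output signal of the SCN, was at 18.4, 9.11 and 13.5 CPM in wild type and at 27.1, 42.7 and 44.0 CPM in null. All 3 null libraries were higher than all 3 wild-type libraries, with a wide spread in each group (log2 fold change 1.48 ± 0.27, adjusted p = 0.0333). It was called in 2 of the 6 fits with 1 light library left out. Nms (chr1:38939149-38950276), neuromedin S, was at 55.6, 38.5 and 53.2 CPM in wild type and 119, 148 and 147 CPM in null, 281% of the wild-type level (1.49 ± 0.20, adjusted p = 0.00542). The related peptide gene Nmu, neuromedin U, was near the lower limit of counting in wild type, at 0.303, 0.164 and 0.0993 CPM, and reached 1.93, 1.33 and 1.57 CPM in null. Its log2 fold change of 3.06 ± 0.36 (adjusted p = 0.00159) was the most positive of the 70 genes.

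Rgs16 (chr1:153740353-153745468) shortens signalling through inhibitory G proteins and is known in the SCN for the daily timing of cyclic AMP. It was at 140, 107 and 129 CPM in wild type and 274, 329 and 270 CPM in null (1.21 ± 0.15, adjusted p = 0.00280). C1ql3, a secreted synaptic protein of the C1q family, was at 60.6 to 78.2 CPM in wild type and 121 to 146 CPM in null (0.97 ± 0.17). The receptor genes Prokr2 and Nmur2 did not pass, with Prokr2 at 349 CPM in null and 254 CPM in wild type and Nmur2 at 4.90 and 5.51 CPM. Vip was at 818, 884 and 979 CPM in null and at 512, 491 and 606 CPM in wild type. Its groups did not overlap, and its log2 fold change of 0.74 ± 0.22 did not pass the test (adjusted p = 0.359), although a fit of the 6 light libraries alone gave an adjusted p of 0.00537. Avp was at 477, 488 and 439 CPM in null and at 691, 259 and 201 CPM in wild type, where 1 library held more than all the others. Without that wild-type library, its log2 fold change was 1.03 (adjusted p = 0.0275), against 0.29 ± 0.34 with it. Grp, at 20.5 to 25.2 CPM in null and 24.7 to 28.9 CPM in wild type, differed by -0.24 ± 0.18.

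The sequences before the start sites of Cck, Prok2 and Rgs16 are shown as examples from the peptide list, 1 gene that fell and 2 that rose. Nmu and C1ql3 of the same list also held searched motifs in their promoters and are not printed. The printed sequences are the 250 bases upstream of the RefSeq start (GRCm38.p6), 5′ to 3′ on the gene's strand, with the motifs in capitals. The motifs, searched on both strands, were CACGTG (an E-box of clock factors), TCGTG (a core of bHLH-PAS pairs with ARNT, CACGA on the other strand), TGACGTCA (the cyclic AMP response element) and TGACG (its shorter form, CGTCA on the other strand, which every TGACGTCA also holds).
Cck, chr9:121495695-121495944, minus strand: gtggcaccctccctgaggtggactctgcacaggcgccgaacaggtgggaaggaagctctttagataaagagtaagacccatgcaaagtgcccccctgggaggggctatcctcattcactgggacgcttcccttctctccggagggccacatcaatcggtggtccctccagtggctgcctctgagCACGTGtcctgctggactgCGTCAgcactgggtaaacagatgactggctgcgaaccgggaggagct
Prok2, chr6:99726393-99726642, minus strand: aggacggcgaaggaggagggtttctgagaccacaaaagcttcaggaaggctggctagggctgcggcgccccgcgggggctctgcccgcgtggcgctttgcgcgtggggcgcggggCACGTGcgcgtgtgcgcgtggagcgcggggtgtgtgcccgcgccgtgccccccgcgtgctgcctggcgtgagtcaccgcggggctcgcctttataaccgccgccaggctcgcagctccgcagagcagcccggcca
Rgs16, chr1:153740103-153740352, plus strand: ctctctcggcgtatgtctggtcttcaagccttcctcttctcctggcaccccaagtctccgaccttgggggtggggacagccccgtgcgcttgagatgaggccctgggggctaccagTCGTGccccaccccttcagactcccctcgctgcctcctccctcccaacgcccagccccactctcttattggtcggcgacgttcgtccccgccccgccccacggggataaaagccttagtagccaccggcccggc
Cck, which fell, and Prok2, which rose, each held 1 CACGTG, Cck also held 1 CGTCA, and Rgs16 held 1 TCGTG. Promoters were found for 23 of the 29 lower genes and 25 of the 41 higher genes, 34 promoters in each set. TCGTG was in 11.8% of the promoters of lower genes and in 20.6% of those of higher genes, against 16.9% of 14633 promoters of genes tested. CACGTG was in 5.88%, 11.8% and 7.80% of the same sets, TGACG in 11.8%, 20.6% and 24.6%, and TGACGTCA in 2.94%, 0.00% and 2.45%. A match is a run of letters and shows no binding. None of the 3 printed windows lay under an H3K27ac peak, in the authors' peak lists of SCN from the dark or after 1 h of light. H3K27ac is a mark of active promoters and enhancers. In the light list, a peak overlapped a promoter of 17.4% of the lower genes and 36.0% of the higher genes with a promoter sequence, and of 39.5% of all such genes tested. In the dark list the shares were 21.7%, 24.0% and 40.9%.

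Beyond the peptide list, genes of secreted proteins and their receptors were among those higher in null. Bdnf (chr2:109674700-109727043), the neurotrophin that is the best known NPAS4 target in forebrain neurons, was at 17.8, 14.7 and 15.4 CPM in null and 8.52, 7.69 and 8.04 CPM in wild type. The null level was 198% of wild type, with little spread (0.98 ± 0.08, adjusted p = 0.000163), and Bdnf was called in all 6 fits with 1 light library left out. Clcf1 (chr19:4214238-4223505), a cytokine that acts through the CNTF receptor and gp130, was at 5.52, 4.72 and 5.22 CPM in null and 1.08, 1.25 and 0.926 CPM in wild type (2.24 ± 0.20, adjusted p = 0.000216). Its receptor genes Cntfr, Lifr and Il6st differed by 0.12, -0.01 and -0.05 and did not pass the test. Procr, the endothelial protein C receptor, rose by 1.80 ± 0.15, from 1.28 to 1.59 CPM in wild type to 4.79 to 5.09 CPM in null. The 8 endothelial markers, by contrast, held none that passed, with a summed level of 181 to 210 CPM in null and 180 to 198 CPM in wild type.

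Receptor and signalling genes also rose. Npr1, a natriuretic peptide receptor, was at 14.3 to 19.2 CPM in null and 6.39 to 8.15 CPM in wild type (1.20 ± 0.21). Chrna3, a nicotinic acetylcholine receptor subunit, was at 14.1 to 18.6 CPM and 6.45 to 8.86 CPM (1.08 ± 0.19), and Ntsr1, a neurotensin receptor, at 9.42 to 11.8 CPM and 5.10 to 5.98 CPM (0.94 ± 0.15). Ppp1r1a, an inhibitor of protein phosphatase 1 that protein kinase A activates, was at 131, 141 and 149 CPM in null and 52.3, 39.9 and 54.4 CPM in wild type. The null level was 287% of wild type (1.52 ± 0.15, adjusted p = 0.000577). Ppef1, a calcium-binding protein phosphatase, rose by 1.42 ± 0.18 and Rasl11b, a Ras-like small GTPase, by 1.15 ± 0.12.

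The other strong increases were of a claudin, an RNA-binding protein and secreted factors. Cldn23 rose by 2.32 ± 0.24, from 0.562 to 0.842 CPM to 2.83 to 3.78 CPM, and Igf2bp3, which binds insulin-like growth factor 2 mRNA, by 1.88 ± 0.27. Fst, follistatin, an activin antagonist, was at 2.08 to 2.88 CPM in null and 0.953 to 1.04 CPM in wild type (1.37 ± 0.23). Fgf5, a fibroblast growth factor, rose by 2.06 ± 0.37 but stayed under 1 CPM in every light library. Nov, a matricellular protein of the CCN family, was at 103, 134 and 111 CPM in null and 50.3, 51.0 and 48.9 CPM in wild type (1.21 ± 0.23, adjusted p = 0.0428). It was called in none of the 6 fits with 1 light library left out. Smaller increases in genes with many reads were those of Scn3b, a sodium channel beta subunit, at 184 to 192 CPM in null and 144 to 146 CPM in wild type, and Spcs3, a signal peptidase subunit, at 108 to 111 CPM and 86.5 to 92.0 CPM.

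**Figure D2:**
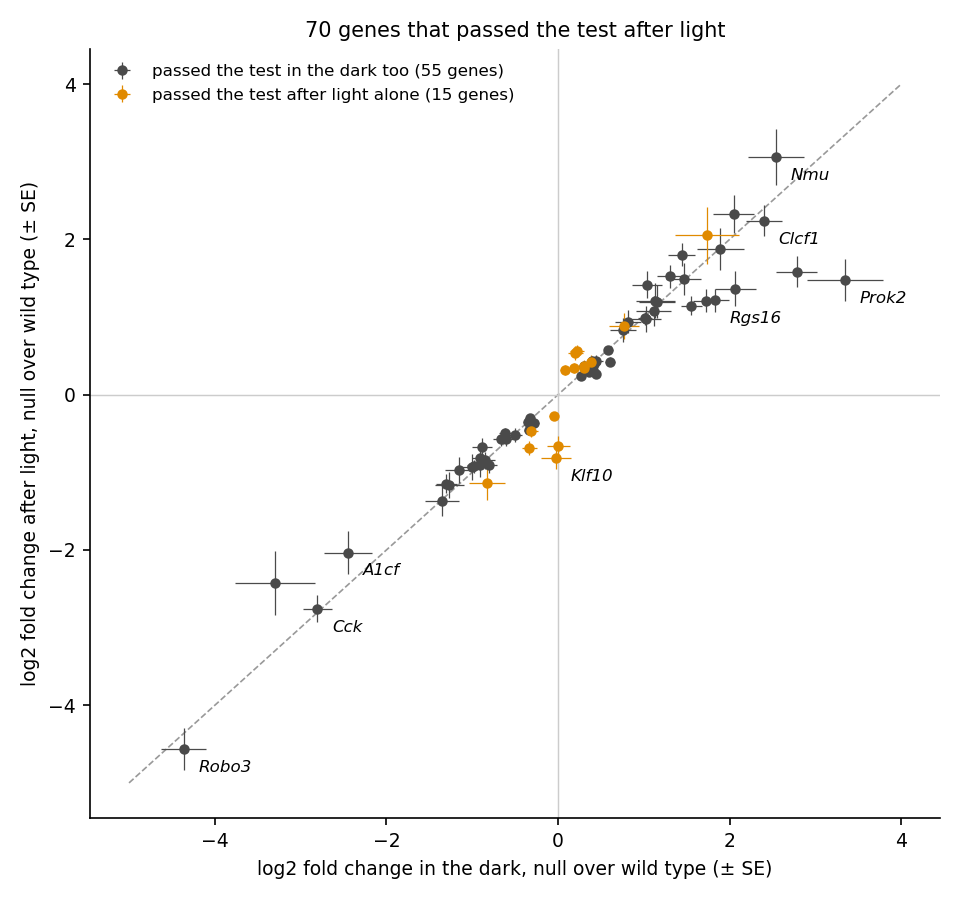
Log2 fold change, null over wild type, of the 70 genes that passed the test after light (y axis) against the same gene's log2 fold change in the dark (x axis), with bars for the SE; the dashed line marks equal values, and colours show whether the gene also passed in the dark. Robo3 and Cck lie at the lower left and Nmu at the upper right, near the line, and Prok2 lies below it.

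Most of the genes called after light also differed between the genotypes in mice kept in the dark. There, 113 genes passed the test (0.753% of those tested), 65 higher and 48 lower in null. With the replicate number as a block, which the correlations of same-numbered dark libraries allow, 463 passed, and in a fit of the 6 dark libraries alone 35. Leaving out 1 dark library gave 48 to 94 calls, with 70 without null library 3, 60 without wild-type library 2 and 48 without wild-type library 3. The light and dark comparisons share no library, but both come from 1 fit with a shared estimate of each gene's spread, so their calls are not independent. Of the 70 genes called after light, 55 were also called in the dark, 78.6% of the light calls and 48.7% of the dark calls, and all 55 in the same direction (32 higher and 23 lower). The sign was the same as after light for 69 of the 70, Dio2 with a dark difference of 0.00 being the exception. Robo3 was at 0.469, 0.288 and 0.362 CPM in the null dark libraries and 5.67, 9.41 and 8.17 CPM in the wild-type dark libraries (-4.36 ± 0.26). Cck was at 6.67, 4.72 and 6.23 CPM and 40.2, 36.9 and 46.1 CPM (-2.80 ± 0.17), and Nms at 94.5, 165 and 133 CPM and 36.6, 53.6 and 51.4 CPM (1.47 ± 0.20). For these 3 genes the null and wild-type libraries separated fully in both conditions.

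Whether the genotype difference itself changed with light was tested as an interaction. Fos and Nr4a1 passed, 2 genes or 0.0133% of those tested, and 342 genes had an unadjusted p below 0.05. DESeq2 called 11. None of the 70 genes called after light was among the 2. Fos was at 8.16, 7.97 and 7.84 CPM in wild-type dark and 17.9, 24.8 and 22.4 CPM in null dark libraries, and at 285, 241 and 256 CPM in wild-type and 136, 232 and 209 CPM in null light libraries. The null mice thus had a higher level in the dark (1.44 ± 0.19, adjusted p = 0.00308) and a lower mean after light that did not pass (-0.44 ± 0.16, adjusted p = 0.573), with an interaction of -1.88 ± 0.25 (adjusted p = 0.0453). Nr4a1, an orphan nuclear receptor, was at 8.09 to 10.2 CPM in wild-type and 19.9 to 23.5 CPM in null dark libraries and at 186 to 241 CPM and 122 to 184 CPM in the light, with an interaction of -1.70 ± 0.21 (adjusted p = 0.0446). Both interactions were past the threshold without null light library 1 or 2 or null dark library 1, and missed it without any other single library, with adjusted p up to 0.268 for Fos and 0.227 for Nr4a1.

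The other 15 of the 70 genes, 9 higher and 6 lower, passed after light and not in the dark. None passed the interaction test, where the smallest adjusted p among all 70 genes rounds to 1.00, so a difference between light and dark was not shown for them. Klf10 (chr15:38291464-38300711), an early-response zinc-finger repressor, was at 28.0, 24.9 and 29.4 CPM in wild-type light libraries and at 12.2, 18.0 and 16.6 CPM in null light libraries (-0.81 ± 0.15, adjusted p = 0.0333). In the dark it was at 6.00 to 6.66 CPM in wild type and 4.69 to 7.07 CPM in null, where the groups overlapped (-0.03 ± 0.17). Its call was kept in 1 of the 6 fits with 1 light library left out. Lpar6, a lysophosphatidic acid receptor, was at 25.8, 25.1 and 30.4 CPM in wild-type light libraries and at 15.8, 17.3 and 17.4 CPM in null light libraries, and kept its call in all 6 such fits (-0.69 ± 0.09, adjusted p = 0.00280). Its dark levels were 13.8 to 16.1 CPM and 11.8 to 12.6 CPM (-0.33 ± 0.09). Dio2, the deiodinase that activates thyroid hormone, was at 10.5, 11.4 and 8.54 CPM in wild-type light libraries and 7.34, 5.98 and 6.01 CPM in null light libraries (-0.65 ± 0.12), with dark means of 4.62 and 4.63 CPM. Tmcc3 had dark means of 114 CPM in wild type and 110 CPM in null. Unadjusted interaction p-values of these 4 genes, which a fit across all genes gave, were 0.00448 for Klf10, 0.0145 for Lpar6, 0.00322 for Dio2 and 0.0081 for Tmcc3 (edgeR, each with an adjusted p that rounds to 1.00). The remaining lower genes, Sod3 and Fndc1, had 0.319 and 0.209, and the 9 higher genes had 0.0112 (Tmem41a) to 0.727 (Svil). The 15 genes were picked from the same values, by passing in light and not in the dark. The unadjusted p-values are therefore no separate test of a light-dependent difference.

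**Figure D3:**
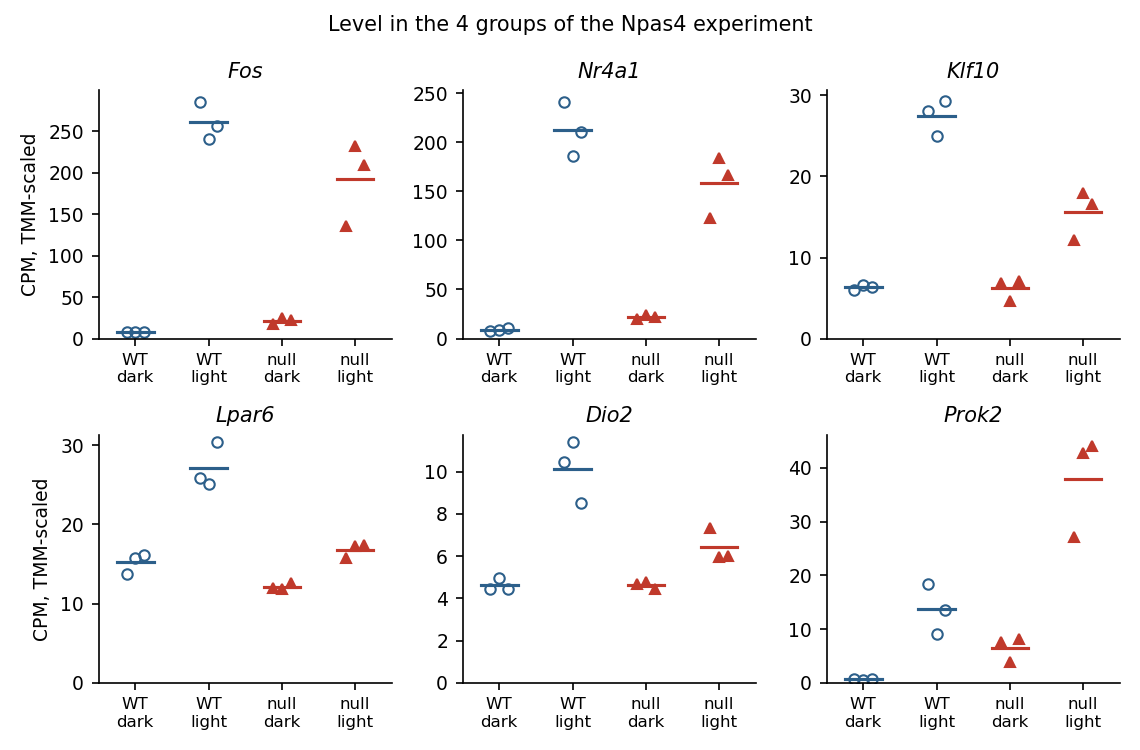
TMM-scaled CPM of Fos, Nr4a1, Klf10, Lpar6, Dio2 and Prok2 in the 12 libraries of the Npas4 experiment, 3 in each group (circles for wild type, triangles for null), with a line at each group's mean and axes that start at 0. Fos and Nr4a1 are the genes with a called interaction, and for Klf10, Lpar6 and Dio2, whose interactions did not pass, the mean levels lie further apart in the light than in the dark.

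Prok2 and Rgs16 were higher in null under both conditions. Prok2 was at 7.61, 3.86 and 8.12 CPM in null dark libraries and 0.769, 0.492 and 0.670 CPM in wild-type dark libraries, a log2 fold change of 3.34 ± 0.44 in the dark beside 1.48 after light. Rgs16 was at 264 to 423 CPM in null and 92.1 to 104 CPM in wild type in the dark (1.84 ± 0.16). Their interactions of -1.87 ± 0.54 and -0.62 ± 0.21 did not pass the test.

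Immediate-early transcription factors are among the first genes that light induces in the SCN. Of 32 tested, 1 fell in null (Klf10) and 0 rose, where 0.193% of all genes tested fell and 0.273% rose. A fold change below 0 was found for 27 of the 32, with a median of -0.20, against 7489 of 15001 and a median of 0.00 over all genes tested. The library labelled null light 1 held the lowest null value in 27 of the 32, against 4418 of the 15001 genes tested. Without it 22 of the 32 lay below 0 and the median was -0.11. Egr1 was at 239, 475 and 370 CPM in null and 627, 570 and 606 CPM in wild type, with no overlap, and did not pass (-0.73 ± 0.27, adjusted p = 0.601). Fosl2, in contrast, was at 246, 478 and 370 CPM in null and 421, 338 and 370 CPM in wild type (-0.05 ± 0.19). In the dark 3 of the 32 were called, all higher in null, Fos, Nr4a1 and Fosl2 (1.33 for Fosl2), where 0.753% of all genes tested were called.

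**Figure D4:**
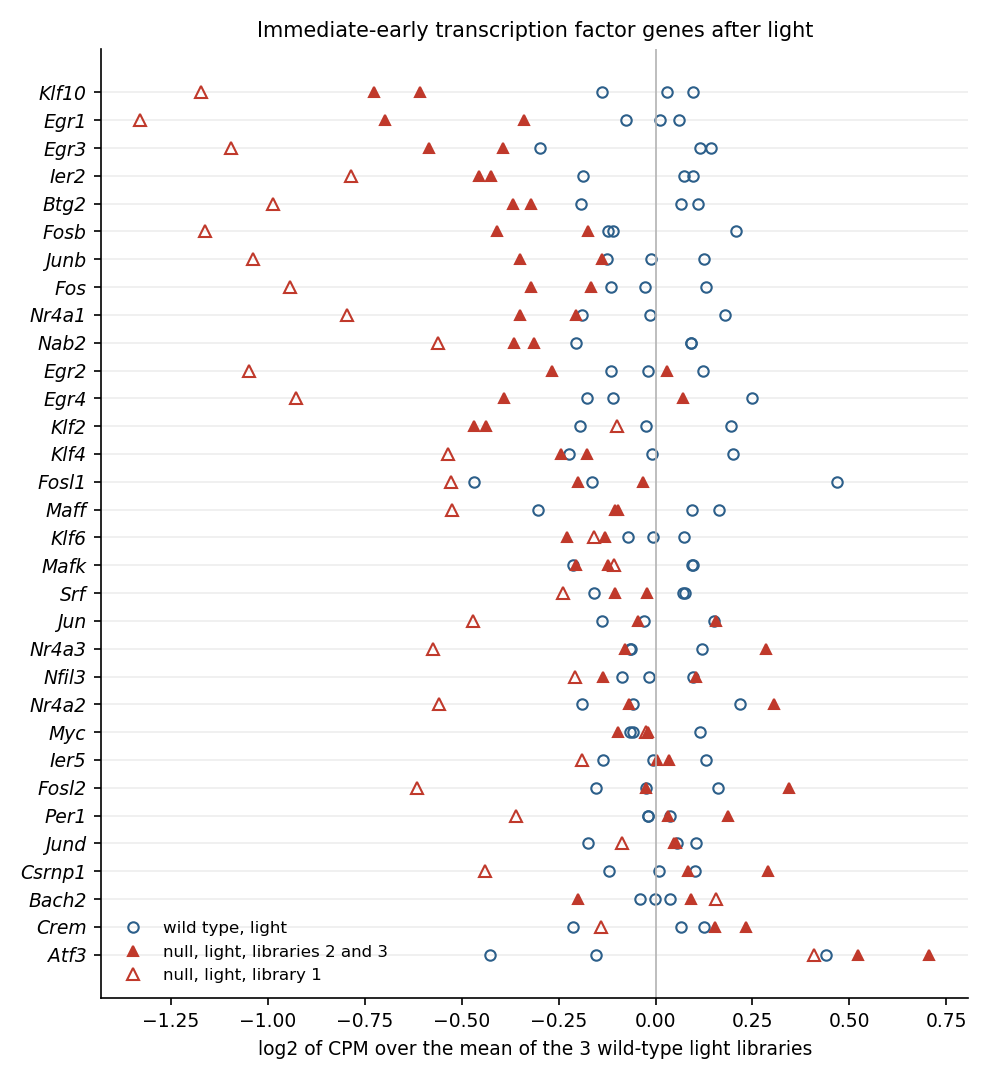
Level of 32 immediate-early transcription factor genes in each light library, as the log2 ratio of CPM to the mean of the 3 wild-type light libraries (circles); filled triangles are null light libraries 2 and 3 and open triangles null light library 1, and genes are ordered by log2 fold change. The open triangle is the lowest null value for 27 of the 32 genes, and Klf10 at the top is the one gene that passed the test.

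Further downstream, 35 activity-regulated effector genes were tested (synaptic proteins, peptides and kinases that neuronal activity induces). Of them 1 rose, Bdnf, and 0 fell, where 0.467% of all genes tested were called. Below 0 lay 28 of the 35, with a median of -0.13, against 7489 of 15001 and a median of 0.00 over all genes tested. Scg2 and Vgf, granins of dense-core vesicles, were at 2366 to 3402 CPM and 469 to 697 CPM in null and at 2593 to 2766 CPM and 369 to 412 CPM in wild type. Vgf did not overlap between the groups and did not pass (0.56 ± 0.14, adjusted p = 0.15), whereas in the dark it did (0.95, adjusted p = 0.00607), and its interaction did not pass. Nptx2, a synaptic pentraxin, was at 9.86 to 15 CPM in null and 10.9 to 15.1 CPM in wild type. Of 20 genes named as NPAS4 targets in other neurons, Bdnf rose and Stac fell, where 0.467% of all genes tested were called. Below 0 lay 13 of the 20, with a median of -0.03. Stac, an adaptor of calcium channels, was at 5.19, 4.72 and 5.26 CPM in null and 8.09, 7.2 and 8.87 CPM in wild type (-0.67 ± 0.11, adjusted p = 0.0249). Of 29 feedback genes of the MAPK, cyclic AMP and calcium pathways, 0 passed after light and no interaction passed. In the dark 4 of them were called, all higher in null, where 0.753% of all genes tested were called.

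Of 27 core clock genes, 1 passed, where 0.467% of all genes tested did. Bhlhe41, also known as Dec2, a repressor of E-box transcription, was at 87.6, 89.1 and 79.8 CPM in null and 66.1, 70.9 and 64.6 CPM in wild type (0.35 ± 0.07, adjusted p = 0.0428), and lost its call in each of the 6 fits with 1 light library left out. Per1, which light induces, was at 170, 248 and 223 CPM in null and 223, 215 and 215 CPM in wild type, a difference of -0.03 ± 0.11. Per2 was at 112, 119 and 109 CPM in null and 114, 123 and 145 CPM in wild type (-0.17 ± 0.09, adjusted p = 0.935). In the dark Per2 was higher in null by 0.48 (adjusted p = 0.0317), and its interaction did not pass. Cry1 differed by -0.13 ± 0.10. After light the values of both Period genes overlapped between the genotypes.

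Of all genes tested 0.467% were called, so 0 or 1 call in a list of this size says little about its members. None passed of 23 GABA synapse genes, 28 glutamate receptor and scaffold genes and 28 potassium channel genes, with medians of 0.01, -0.03 and -0.02. Among 29 calcium, sodium and HCN channel genes, Scn3b rose. Genes of the stress and hormone lists (cytosolic heat shock, endoplasmic reticulum chaperones, interferon, glucocorticoid and cholesterol synthesis) also held none that passed, and neither did the 23 SCN transcription factors. Glucocorticoid-responsive genes had a median of -0.18, with 13 of 16 below 0, against 7489 of 15001 over all genes tested. Of the marker lists, 3 SCN neuron markers rose (Prok2, Nms and Rgs16) and 1 fell (Cck), Slc6a3 fell among the neighbouring hypothalamic neurons, and no glial, vascular, ependymal, fibroblast, choroid plexus, blood or general neuronal marker passed. Choroid plexus markers summed to 31.5 to 49.8 CPM in null and 41.5 to 122 CPM in wild type, where the highest value was that of wild-type light library 1.

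**Figure D5:**
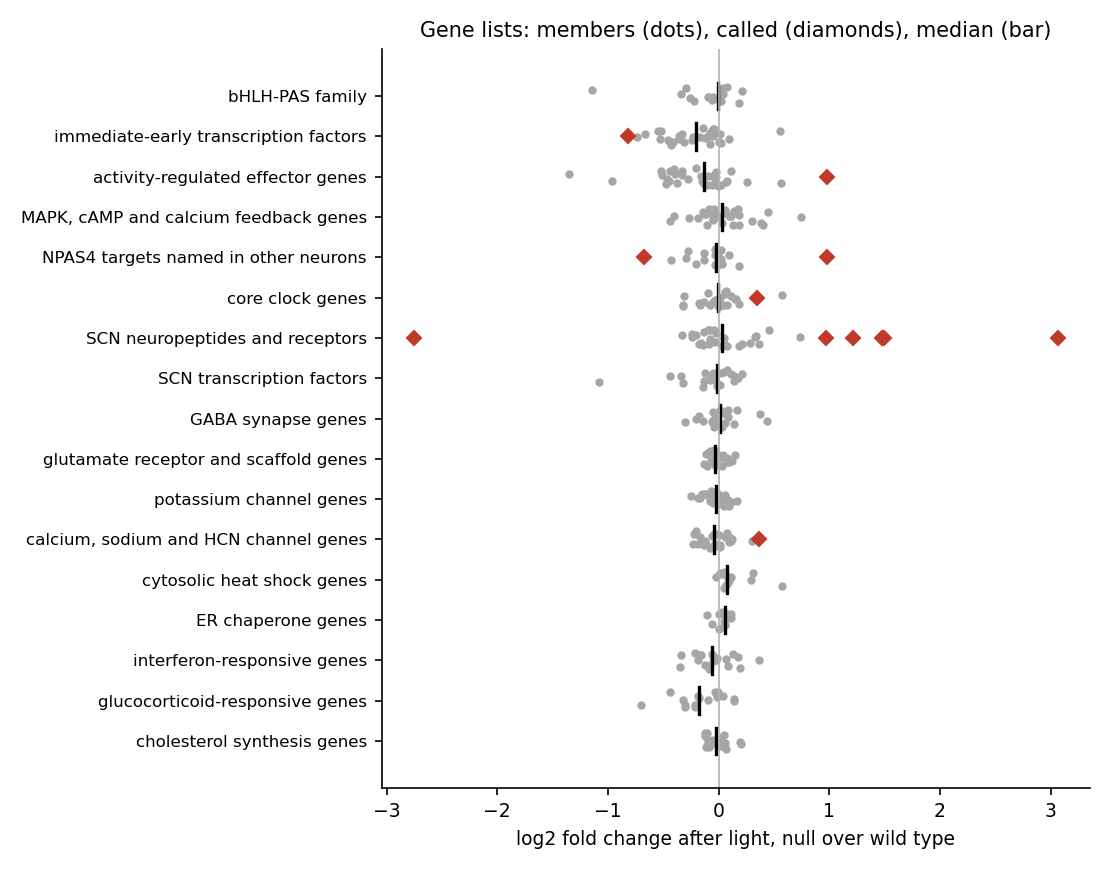
Log2 fold change after light, null over wild type, of the tested members of 17 gene lists (grey dots), with members that passed the test as red diamonds and a bar at each list's median. The list of SCN neuropeptides and receptors holds 6 diamonds, from Cck on the left to Nmu on the right, and most medians lie near 0.

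The 70 genes were spread over the genome. Of them, 69 had a RefSeq position, spread over all 20 chromosomes tested, with 4 of 487 genes tested on chromosome 19, which carries Npas4. That is 0.821%, where 0.467% of all genes tested were called and single chromosomes ranged from 0.183% to 0.985%. Lrrc10b (chr19:10455371-10457447) was among these 4. Whether calls on this chromosome are linked to the position of Npas4 was not tested. Of the 50 tested genes nearest to Npas4, 25 on each side, 1 passed, where 0.467% of all genes tested did. This was Clcf1, which lies 761 kb away and is the outermost of the 25 on its side. The window therefore shows nothing of the genes beyond it. The other 49 had log2 fold changes between -0.47 and 0.27. The median level in wild-type light libraries was 25.7 CPM for the lower genes, 18.5 CPM for the higher genes and 29.3 CPM for all genes tested. On the authors' RPKM scale, which takes account of gene length, wild-type light means were 54.0 for Cck, 53.3 for Rgs16, 48.8 for Nms, 37.5 for Ppp1r1a and 7.09 for Prok2, and 1.29 for Bdnf, 1.04 for Robo3 and 0.290 for Clcf1. The matching null means were 7.91, 123, 136, 107, 19.5, 2.55, 0.0427 and 1.37 RPKM.

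A separate light-pulse experiment in the same series, with 2 libraries of 1 h of light and 4 of dark at CT17 that the genotype comparison did not use, gave an independent reading of which of the 70 genes respond to light. Of the 66 tested there, 10 were called with the batch of the labels in the model, where 8.39% of all genes were called, and 6 with a term for the suffix s of the sample titles, where 1.27% were called. Fold changes given first are those with the batch of the labels. The 6 were called in both fits and all rose with light, and 5 of them are described here. Prok2 was at 0.708 to 1.78 CPM in the dark and 18.5 and 15.2 CPM after light (4.42 ± 0.22, and 3.37 with the suffix term), and Rgs16 at 60.8 to 67.7 CPM and 93.9 and 94.7 CPM (0.61 ± 0.10, and 0.53 with the suffix term). Both were higher in null. Klf10 was at 7.50 to 9.04 CPM in the dark and 17.2 and 19.2 CPM after light (1.16 ± 0.12, and 1.16 with the suffix term), and Lpar6 at 10.1 to 16.9 CPM and 24.9 and 21.5 CPM (0.56 ± 0.13, and 0.93 with the suffix term). Both were lower in null. Fndc9, which was 131% of wild type in null, was at 44.8 to 51.0 CPM in the dark and 68.5 and 61.4 CPM after light (0.45 ± 0.08, and 0.39 with the suffix term). For most of the 70 genes no light response was called in these libraries, Cck (0.37, adjusted p = 0.0993), Nms (0.15, adjusted p = 0.710) and Bdnf (0.06, adjusted p = 0.886) among them. Neither was one called for Dio2 (-0.27, edgeR adjusted p = 0.498) or Tmcc3 (0.00, adjusted p = 0.983). In the Npas4 experiment the wild-type means of Dio2 and Tmcc3 were higher in light than in the dark.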

How the data were processed

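Per the series' design text and the labels, mRNA was selected from pooled SCN and sequenced as TruSeq libraries. The authors deposited a table of whole-number read counts per gene, and a table of RPKM values that equals those counts over gene length and library total. For these libraries the submitters' processing notes name STAR and HTSeq among other tools, without roles, and the mm10 build. The strand setting of counting is not given in the sources used here, so reads of overlapping or antisense genes cannot be told apart. The authors' deposited H3K27ac peak lists give a fold enrichment and a −log10 q value for each peak, 1 pooled sample a condition, and were used for position alone.

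The test of the counts was edgeR's quasi-likelihood F-test (edgeR 4.0.16, R 4.3.3, filterByExpr, TMM scaling), in 1 fit of all 12 libraries with 4 group means and Benjamini-Hochberg adjustment over the 15001 genes tested. Genes with an adjusted p under 0.05 are those called, or said to have passed. CPM values use TMM-scaled totals, and SE is the log2 fold change over the square root of F. The procedure was tested on simulated counts. The light-pulse libraries were fitted apart, with the batch of the labels as a term. Alternatives were DESeq2 1.42.0, limma 3.58.1 (voom), RLE scaling, no filter, fewer libraries and the replicate number as a block. The deviations of same-numbered null and wild-type dark libraries correlated at 0.369, 0.670 and 0.281, each above 0.1, so the blocked count stands beside the dark result. This pairing comes from the numbers in the titles and the data.

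Named genes were Npas4, the 15 most negative and 15 most positive called genes at a mean of 1 CPM or more, called and most abundant members of each list, a few clock, peptide and early genes, and neighbours of Npas4. Receptor and partner genes, further called genes and genes outside that rule (Robo1, Robo2, Cckar, Cckbr, Prokr2, Nmur2, Cntfr, Lifr, Il6st, Wnt3, Lpar6, Dio2 and others) were added after their values had been seen. A called gene that the rule names is not reported here. The comparison and the gene lists were chosen with earlier results of these data known. RefSeq positions and promoters are of GRCm38.p6, the build that mm10 is. The 13 mitochondrially encoded genes are listed at 0 in all libraries, so they give no reading of RNA quality. Single-nucleus, H3K4me3 and input samples are not used here.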

Additional observations from a re-analysis of the deposited data

Results flagged for a closer look

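The genotype difference of Fos differed between light and dark in the interaction test, at -1.88 ± 0.25 on the log2 scale (edgeR adjusted p = 0.0453), with null above wild type in all 3 dark libraries and null below wild type in the light. Nr4a1 did so as well, at -1.70 ± 0.21 (adjusted p = 0.0446). The part of null light library 1, which had the lowest null light value for both genes, was measured by leaving it out, which gave -1.68 for Fos and -1.54 for Nr4a1, both past the threshold.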

How the results depend on the processing

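The count of genes called after light (70) became 163 with DESeq2, 119 with the 6 light libraries alone, 177 with limma-voom and 32 to 42 with 1 light library left out. Higher genes (41) became 92, 66, 92 and 16 to 26, and lower genes (29) 71, 53, 85 and 14 to 19. The replicate block gave 227 genes after light, 124 higher and 103 lower, all 70 among them. Same-numbered null and wild-type light libraries correlated at 0.0222, 0.185 and 0.296, and 4 of 6 libraries correlated best with their own number. The first value is under 0.1, so a pairing between the genotypes in light is not shown for that number. Light libraries did correlate with dark libraries of the same genotype and number, at 0.325, 0.627 and 0.19 in null and 0.194, 0.354 and 0.383 in wild type. A replicate effect thus reached the light libraries too, and which of the 2 counts fits the design better was not tested. All 70 were also called by DESeq2 and limma-voom, 69 with RLE scaling, and 65 each without the filter and with the light libraries alone. Dark calls (113) became 257 with DESeq2, 463 with the replicate block, 35 with the 6 dark libraries alone and 48 to 94 with 1 library left out. Interaction calls (2) became 11 with DESeq2, 1 with RLE scaling, 2 with the replicate block and 0 to 3 with 1 library left out. Light-pulse calls (1218) became 184 with the suffix term, 182 without a batch term and 171 to 1246 with 1 library left out. Log2 differences near 0 changed sign. Arnt was at 0.0021 by DESeq2, 0.0019 with RLE scaling, 0.00047 without the filter and 0.011 by limma-voom, and Nptx2 at 0.11 by limma-voom. With 1 light library left out, Arnt ranged from -0.040 to 0.026, Arnt2 from -0.0062 to 0.082, Clock from -0.038 to 0.034, Per1 from -0.15 to 0.11, Nptx2 from -0.18 to 0.12 and Avp from -0.018 to 1.03. The causes were not tested. Each library counted 26638939 reads or more, and under 1 CPM few reads stand behind a value.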
